A study of Homo sapiens with 6 samples.

Results

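The genes described here are the 37 genes carried by the human mitochondrial genome, taken as every row of the deposited gene table whose symbol begins with MT-, out of 35009 rows in all. They are 2 rRNAs, 13 mRNAs and 22 tRNAs, and each of the 37 passed the filter on low counts. They were measured in poly(A)-selected RNA of THP-1 cells, a human monocytic leukaemia line that is differentiated into macrophages in culture. In 3 libraries the macrophages were deficient in MCT4 and exposed to ox-LDL (siMCT4), and in 3 libraries they carried the control genotype and were exposed to ox-LDL (control). MCT4 is a lactate and proton exporter of the plasma membrane encoded by SLC16A3, and ox-LDL is oxidized low-density lipoprotein, which macrophages take up in atherosclerotic plaques. Every library of both groups had received ox-LDL, so no library shows untreated macrophages. The labels give neither the dose and time of ox-LDL nor the length of the MCT4 depletion. They do not say whether control cells received a non-targeting siRNA, so loss of MCT4 and exposure to an siRNA cannot be told apart. Separate cultures are not named for the 3 libraries of either group, so each p-value measures the spread between these libraries, which may be technical.

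Mitochondrial DNA is a small circle transcribed from both strands by a dedicated polymerase, POLRMT, with the factors TFAM and TFB2M. Each strand gives a long precursor in which tRNAs lie between most of the rRNAs and mRNAs; nucleases cut the tRNAs out, which frees the other RNAs, and these are then polyadenylated, stabilised or degraded. The heavy-strand precursor carries both rRNAs and all mRNAs but one, and the light-strand precursor carries MT-ND6 and a minority of the tRNAs. The encoded proteins are core subunits of complexes I, III and IV of the respiratory chain and of complex V, the ATP synthase, whose remaining subunits come from nuclear genes. Macrophage activation is known to shift cells between glycolysis and this oxidative route, and lactate is the end product that MCT4 carries out of the cell.

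Total counts were 61880619 to 69181938 per library. SLC16A3, the targeted gene, had 10.8, 11.04 and 13.4 CPM in siMCT4, against 115, 101 and 108 CPM in controls, where CPM is counts per 1000000 after TMM scaling, a method that sets library sizes from the bulk of the genes. It was lower in siMCT4 by edgeR's quasi-likelihood test (log2 change -3.20 ± 0.10 SE, adjusted p = 1.12e-06), and an exact permutation test gave p = 0.1, the smallest possible. All 8 macrophage markers looked up were detected, with a summed level of 1076 to 1110 FPKM in siMCT4 and 1185 to 1204 FPKM in controls. By edgeR 5 of these 8 were called lower and 3 were not called, beside 20.8% of all tested genes called lower and 20.6% higher. The log2 changes of the 8 ran from -1.99 (CD14) to 0.07. Markers of other cell types summed in any library to at most 0.0130 FPKM (T cell, CD8A alone) and 1.99 FPKM (B cell, 2 markers). The sums were at most 2.94 FPKM for fibroblasts and 0.317 FPKM for epithelial cells, with 3 markers each. The endothelial markers PECAM1 and VWF summed to 43.6 to 45.1 FPKM in siMCT4 and 71.9 to 75.5 FPKM in controls. Both endothelial markers were called lower, with log2 changes of -0.65 for PECAM1 and -2.83 for VWF, and 1 B cell and 1 epithelial marker were called higher. The part of these marker differences in the mitochondrial values was not tested.

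The RNA of the mitochondrial genome took a smaller part of the siMCT4 libraries than of the controls. The 37 genes held 3.19%, 3.35% and 3.25% of all counts in the siMCT4 libraries, against 4.85%, 4.58% and 4.52% in the controls. The groups did not overlap, and the siMCT4 share averaged 3.27 ± 0.0788% against 4.65 ± 0.177% in controls (SD, n = 3 each), a ratio of 0.702. An exact two-sided permutation test over the 20 assignments of the 6 libraries gave p = 0.1, the smallest p this design allows. The 95% Wilson interval was 3.191% to 3.199% in the first siMCT4 library and 4.848% to 4.858% in the first control, narrow beside the spread between libraries. In a share of bulk RNA, fewer mitochondria per cell, less RNA in each and more RNA of other genes cannot be told apart. Since the RNA had been selected on oligo(dT), a lower amount of a transcript and a shorter or rarer poly(A) tail on it cannot be told apart either.

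Among the 37 genes 25 were called lower in siMCT4 and 0 higher, beside 20.8% and 20.6% of all 19944 tested genes, and 12 were not called. Calls rest on edgeR's quasi-likelihood test with a threshold of 0.05 on the adjusted p. In 29 of the 37 genes every siMCT4 library lay below every control, beside 27.8% of all tested genes. The median log2 change was -0.42 over the 37 genes and -0.01 over all tested genes. By kind of RNA, 2 of 2 rRNAs, 12 of 13 mRNAs and 11 of 22 tRNAs were called lower. The number higher was also 0 at an unadjusted p under 0.05 and by DESeq2, and was 1 by limma on log2(TPM + 1), which called MT-TM at a log2 change of 0.32. Nuclear genes with a GC content in the range of the mitochondrial rRNAs and mRNAs, 39.6% to 47.7%, had a median log2 change of 0.09 over 6549 genes, of which 18.1% were called lower. With 20 other ways of fitting the data, 12 of the 25 calls held in every one: both rRNAs, the mRNAs of MT-ND3, MT-ND5, MT-ND6, MT-CO3, MT-ATP6 and MT-ATP8, and the tRNAs MT-TF, MT-TV, MT-TD and MT-TP. The setting that moved the counts most was limma on FPKM and TPM values, with 7 mRNAs and 8 tRNAs lower on log2(FPKM + 1), and 6 mRNAs and 5 tRNAs lower on log2(TPM + 1), where the median of all genes shifts to 0.12. On the TPM scale the calls lost included those of MT-ND1 (adjusted p = 0.094), MT-TC (0.139), MT-TY (0.128) and MT-TT (0.231). A correction for GC content made the changes of MT-CYB, MT-ND2, MT-TL1, MT-TA, MT-TN, MT-TC, MT-TE and MT-TT over 1.5 times as large, from -0.61 for MT-TC to -0.42 for MT-CYB.

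**Figure D1:**
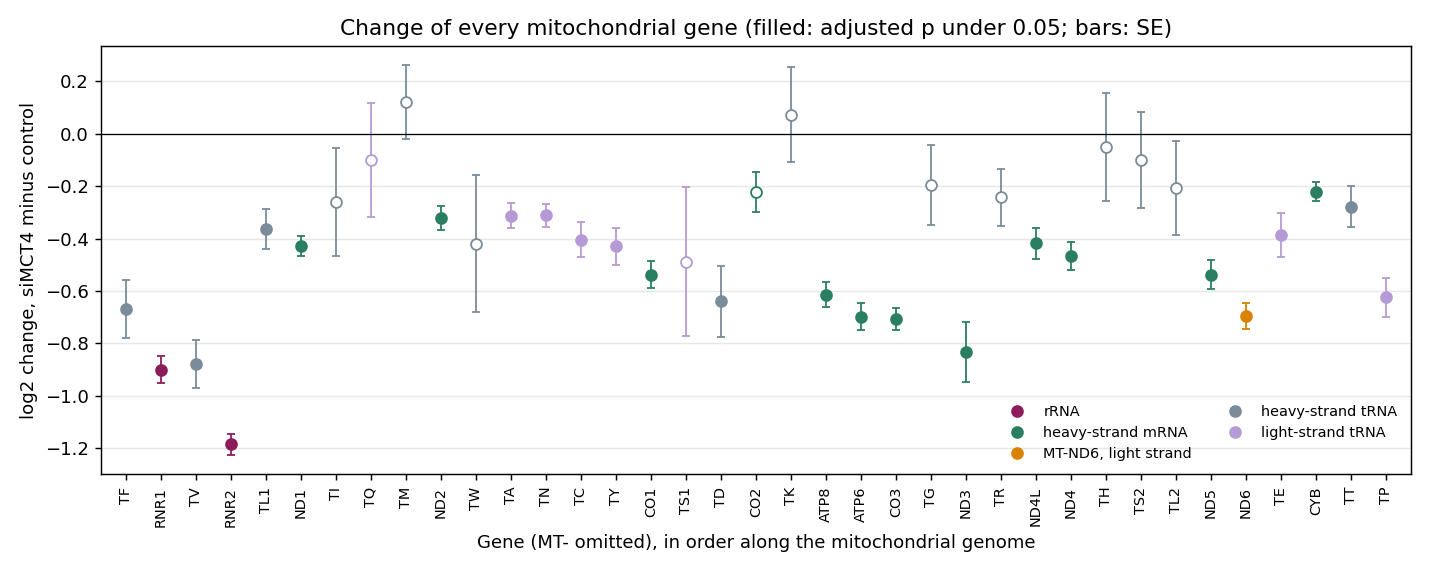
Log2 change (siMCT4 minus control, y axis) of the 37 mitochondrial genes in their order along the genome (x axis), with bars for the standard error, filled circles for an adjusted p under 0.05 and colours for the kind of RNA; n = 3 libraries per group. MT-RNR2 lies lowest at -1.19, MT-ND3 is the lowest mRNA at -0.83, and MT-TM (0.12) and MT-TK (0.07) are the only points above 0.

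The rRNAs of the mitochondrial ribosome had the largest falls of the 37 genes by estimate, although the changes of the tRNA MT-TV and the mRNA MT-ND3 lay within their own standard errors of that of MT-RNR1. MT-RNR2, the 16S rRNA of the large subunit (ENSG00000210082, chrM:1671-3229 on the plus strand, GRCh38), had 4075, 4141 and 3977 CPM in the siMCT4 libraries, against 9548, 9205 and 8977 CPM in the controls. MT-RNR1, the 12S rRNA of the small subunit (ENSG00000211459, chrM:648-1601 on the plus strand), had 195, 199 and 181 CPM in siMCT4, against 361, 344 and 370.0 CPM in controls. For both genes every siMCT4 library lay far below every control library, and the 3 libraries of a group lay close together. The log2 change was -1.19 ± 0.039 (SE) for MT-RNR2, with an adjusted p of 1.32e-06 in edgeR's test, and -0.90 ± 0.053 for MT-RNR1, with an adjusted p of 1.59e-05. Both together held 13.4 ± 0.344% of the mitochondrial counts in siMCT4 and 20.04 ± 0.222% in controls (SD, n = 3 each). The poly(A) selection retains only part of these short-tailed rRNAs, and the part that retention has in the change was not tested.

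Of the tRNAs that border the rRNAs in the precursor, MT-TV and MT-TL1 are shown in full, because their values can be set beside those of MT-RNR2, which both border. MT-TF (phenylalanine) precedes MT-RNR1, MT-TV (valine) lies between the 2 rRNAs, and MT-TL1 (leucine) follows MT-RNR2 and holds the site that the termination factor MTERF1 binds. The letters are DNA, read 5′ to 3′ on the plus strand from GENCODE 29 transcripts on GRCh38, with no capitals because no stretch is singled out.
MT-TV, chrM:1602-1670: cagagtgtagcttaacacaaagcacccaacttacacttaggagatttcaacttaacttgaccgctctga
MT-TL1, chrM:3230-3304: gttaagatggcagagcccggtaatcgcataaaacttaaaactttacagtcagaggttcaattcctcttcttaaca
MT-TV had 8.26, 8.42 and 8.17 CPM in siMCT4, against 15.9, 15.4 and 14.4 CPM in controls, with a change close to that of MT-RNR1 (log2 change -0.88 ± 0.09 SE, adjusted p = 0.00024). MT-TF had 5.34, 5.33 and 5.14 CPM in siMCT4, against 8.78, 8.26 and 8.10 CPM in controls (log2 change -0.67 ± 0.11 SE, adjusted p = 0.00244). MT-TL1 had 51.2, 52.6 and 52.4 CPM in siMCT4, against 74.4, 65.6 and 61.0 CPM in controls (log2 change -0.36 ± 0.077 SE, adjusted p = 0.00753). All 3 tRNAs were called lower, with groups that did not overlap. A tRNA row is far shorter than the stated mean insert of 300 bp, so how many of its counts came from mature tRNA and how many from longer precursors was not tested.

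Of the 7 complex I mRNAs, all 7 were called lower, and the 6 of the heavy strand had log2 changes from -0.83 to -0.32. Complex I, the NADH dehydrogenase, takes electrons from NADH and pumps protons. MT-ND5 had 2357, 2403 and 2524 CPM in siMCT4, against 3779.8, 3476 and 3321 CPM in controls (log2 change -0.54 ± 0.056 SE, adjusted p = 0.000259). MT-ND4 had 5432, 5667 and 5877 CPM in siMCT4, against 8341, 7662 and 7453 CPM in controls (log2 change -0.47 ± 0.054 SE, adjusted p = 0.000414). MT-ND1 had 1719.9, 1770.3 and 1697 CPM in siMCT4, against 2375, 2312 and 2294 CPM in controls (log2 change -0.43 ± 0.037 SE, adjusted p = 9.92e-05). These 3 mRNAs, for subunits of the membrane arm, were lower in every siMCT4 library than in any control. MT-ND4L, whose reading frame ends inside that of MT-ND4, had 1298, 1351 and 1249 CPM in siMCT4, against 1876, 1655 and 1674 CPM in controls (log2 change -0.42 ± 0.059 SE, adjusted p = 0.00115). MT-ND3 had 104, 109 and 92.1 CPM in siMCT4, against 175, 157 and 212 CPM in controls, with the widest spread for its level of the complex I mRNAs, and had the largest change (log2 change -0.83 ± 0.12 SE, adjusted p = 0.00101). MT-ND2 had 1568, 1655 and 1593 CPM in siMCT4, against 2119, 1957 and 1945 CPM in controls, and had the smallest (log2 change -0.32 ± 0.047 SE, adjusted p = 0.00132). Counts of nuclear copies named for MT-ND2 came to 43.9% of its own counts in siMCT4 and 43.9% in controls, so reads of the gene and its copies may have been split, and its level is uncertain. Under limma on log2(FPKM + 1) the calls of MT-ND4, MT-ND2 and MT-ND4L were lost, with adjusted p-values of 0.0873, 0.105 and 0.14.

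MT-ND6 is the only mRNA of the light strand (ENSG00000198695, chrM:14149-14673 on the minus strand) and encodes another membrane subunit of complex I. It had 367, 379 and 405 CPM in siMCT4, against 642, 606 and 617 CPM in controls. All 3 siMCT4 libraries lay below all 3 controls, and the mRNA fell (log2 change -0.70 ± 0.05 SE, adjusted p = 4.04e-05). The library preparation marked strand, but the strand setting of the counting is not given in the sources used here. Without it, reads of MT-ND6 and of heavy-strand precursor across the same bases cannot be told apart, and the same holds for the light-strand tRNAs.

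MT-CYB, the cytochrome b of complex III and the only mitochondrial gene of that complex, had the smallest change of the 12 mRNAs called. It had 1261, 1306 and 1299 CPM in siMCT4, against 1534, 1506 and 1468 CPM in controls (log2 change -0.22 ± 0.037 SE, adjusted p = 0.00259). The groups were narrow and did not overlap. Under limma on log2(FPKM + 1) the call was lost (-0.11, adjusted p = 0.272).

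Of the mRNAs of the 3 core subunits of complex IV, the cytochrome c oxidase, 2 were called lower. MT-CO1, which binds the haem groups, had 6802, 7524 and 7233 CPM in siMCT4, against 10964, 10302 and 10039 CPM in controls (log2 change -0.54 ± 0.052 SE, adjusted p = 0.00018). MT-CO3 had 1210.2, 1286 and 1188 CPM in siMCT4, against 2034, 1985 and 2001 CPM in controls (log2 change -0.71 ± 0.042 SE, adjusted p = 1.74e-05). MT-CO2, which receives the electrons from cytochrome c, had 2217, 2329 and 1889 CPM in siMCT4, against 2459.7, 2451 and 2596 CPM in controls. Its groups did not overlap, as for all 13 mRNAs, but siMCT4 library 3 lay apart from the other siMCT4 libraries. Its log2 change was -0.22 ± 0.077 SE with an adjusted p of 0.0527, and it was the only mRNA not called. Leaving out siMCT4 library 3 gave -0.14 with an adjusted p of 0.0148, leaving out siMCT4 library 2 gave -0.29 with an adjusted p of 0.0292, and DESeq2 gave an adjusted p of 0.0355. A correction for GC content gave -0.43 (adjusted p = 0.000387), total counts as the scale gave -0.14 (adjusted p = 0.205) and limma on log2(TPM + 1) gave -0.026 (adjusted p = 0.895). For MT-CO1 limma on log2(FPKM + 1) gave -0.43 with an adjusted p of 0.0608.

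The mRNAs of both mitochondrial subunits of complex V fell. MT-ATP6 forms part of the proton channel of the ATP synthase and had 1285, 1332 and 1413 CPM in siMCT4, against 2285, 2139 and 2113 CPM in controls (log2 change -0.70 ± 0.051 SE, adjusted p = 4.70e-05). MT-ATP8, a small subunit of the same membrane part, had 508, 504 and 509 CPM in siMCT4, against 821, 775 and 732 CPM in controls (log2 change -0.61 ± 0.049 SE, adjusted p = 7.00e-05). In both genes the siMCT4 libraries lay well below all controls. Nuclear copies of MT-ATP6 held 15.3% of the counts of that gene in siMCT4 and 14.9% in controls, and those of MT-CO1 2.21% and 1.98%; for each of the remaining mRNAs other than MT-ND2 the copies held at most 0.471%.

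The paired reading frames are shown because their rows share bases, so that reads over the overlap belong to both genes and their values are not independent. Capitals mark the bases in both genes, read 5′ to 3′ on the plus strand of GRCh38.
MT-ATP8 and MT-ATP6, chrM:8520-8579: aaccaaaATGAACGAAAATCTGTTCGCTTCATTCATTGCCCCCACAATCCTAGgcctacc
MT-ND4L and MT-ND4, chrM:10734-10793: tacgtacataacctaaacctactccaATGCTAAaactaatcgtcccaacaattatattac
The first pair shares 46 bases and the second 7, and each pair is carried on 1 processed mRNA in human mitochondria. Within each pair the log2 changes lay close together, -0.61 and -0.70 for complex V and -0.42 and -0.47 for complex I.

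Of the 22 tRNAs, 11 were called lower, 5 of the 14 on the heavy strand and 6 of the 8 on the light strand. The median log2 change was -0.25 for heavy-strand and -0.40 for light-strand tRNAs. MT-TN (asparagine), the most abundant tRNA row, had 126, 128 and 127 CPM in siMCT4, against 165, 155 and 153 CPM in controls (log2 change -0.31 ± 0.045 SE, adjusted p = 0.00125). It lies in the cluster of light-strand tRNAs between MT-ND2 and MT-CO1, next to the origin at which synthesis of the light strand begins, and is shown as the row that stands highest among tRNAs in both groups.
MT-TN, chrM:5657-5729, minus strand, 5′ to 3′: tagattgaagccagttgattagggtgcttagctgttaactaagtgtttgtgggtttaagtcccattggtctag
Its neighbours in the cluster fell by similar amounts, with log2 changes of -0.31 for MT-TA (alanine), -0.40 for MT-TC (cysteine) and -0.43 for MT-TY (tyrosine). MT-TP (proline) fell most of the light-strand tRNAs, with 15.2, 14.7 and 13.9 CPM in siMCT4, against 23.2, 22.9 and 21.4 CPM in controls (log2 change -0.62 ± 0.076 SE, adjusted p = 0.000533). MT-TE (glutamate), beside MT-ND6 on the same strand, had 10.6, 10.6 and 10.7 CPM in siMCT4, against 14.4, 13.4 and 13.9 CPM in controls (log2 change -0.39 ± 0.085 SE, adjusted p = 0.00883). All 6 called light-strand tRNAs were lower in every siMCT4 library than in any control. Under limma on log2(FPKM + 1) the calls of MT-TL1, MT-TA and MT-TN were lost, with adjusted p-values of 0.0678, 0.0705 and 0.123.

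On the heavy strand the called tRNAs besides MT-TF, MT-TV and MT-TL1 were MT-TD and MT-TT. MT-TD (aspartate) had 4.04, 4.38 and 3.78 CPM in siMCT4, against 6.72, 6.43 and 5.85 CPM in controls (log2 change -0.64 ± 0.14 SE, adjusted p = 0.00755). MT-TT (threonine) had 14.0, 13.8 and 13.1 CPM in siMCT4, against 16.2, 16.6 and 16.9 CPM in controls (log2 change -0.28 ± 0.077 SE, adjusted p = 0.0238), and that call was lost on leaving out any 1 of 5 libraries, all but siMCT4 library 3, with adjusted p-values of 0.0501 to 0.083, and with total counts as the scale (0.0873). The 9 heavy-strand tRNAs that were not called had log2 changes from -0.42 (MT-TW, tryptophan) to 0.12 (MT-TM, methionine). All 9 lay under 10 CPM in every library, with standard errors of 0.11 to 0.26, wider than those of nearly all mRNAs. The called MT-TF and MT-TD also lay under 10 CPM in every library, with standard errors of 0.11 and 0.14. Of the light-strand tRNAs MT-TQ (glutamine) was at 1.38, 1.21 and 1.51 CPM in siMCT4 and 1.37, 1.75 and 1.27 CPM in controls. MT-TS1 (serine) had 18.8, 21.1 and 9.89 CPM in siMCT4, against 27.4, 24.7 and 17.7 CPM in controls. In both groups library 3 was the lowest for MT-TS1, the groups overlapped, and with a log2 change of -0.49 ± 0.29 SE the gene was not called (adjusted p = 0.214).

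Compared per length, the mitochondrial RNAs spanned a wide range, and the order was much the same in both groups. Places shifted for both rRNAs and for some other genes, among them MT-TM, place 30 of the 37 in controls and 27 in siMCT4. FPKM, the deposited level per kilobase and 1000000 fragments, was highest for MT-CO1, at 4504 ± 226 FPKM in siMCT4 and 6065 ± 294 FPKM in controls (SD, n = 3 each). MT-RNR2 was at 2519 ± 55.6 FPKM in siMCT4, place 5 of the 37, and at 5313 ± 189.6 FPKM in controls, place 2. In siMCT4 the libraries of MT-RNR2 lay below all libraries of MT-CO2, and in controls above them, whereas MT-RNR2, MT-ND4L and MT-ND4 overlapped in controls and did not differ beyond their spread. MT-ND3 was the lowest mRNA, at 284 ± 25.0 FPKM in siMCT4 and 469.6 ± 67.2 FPKM in controls. MT-RNR1 was at 194 ± 10.03 FPKM in siMCT4 and 336 ± 8.78 FPKM in controls, far under MT-RNR2 although both rRNAs are needed in equal number in a ribosome. MT-TN and its neighbours MT-TY, MT-TC and MT-TA ran from 1012 to 1682 FPKM in siMCT4 and from 1166 to 1936 FPKM in controls, in the range of the mRNAs. MT-TW was lowest, at 9.52 ± 2.03 FPKM in siMCT4 and 11.9 ± 0.307 FPKM in controls. For rows shorter than the insert, FPKM depends on the length correction used, and tRNA levels are therefore rough.

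**Figure D2:**
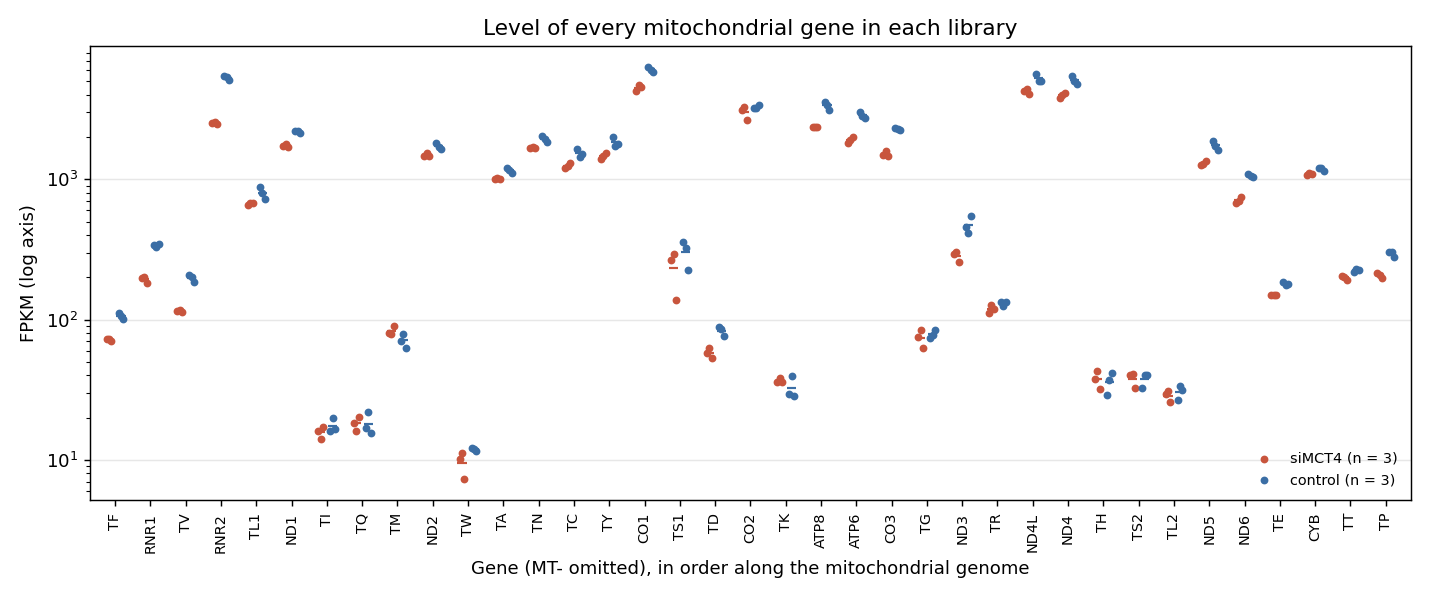
Level of each of the 37 mitochondrial genes in FPKM (y axis, log scale), in their order along the genome (x axis), with 1 point per library (3 siMCT4, 3 control) and short lines for group means. MT-CO1 stands highest at 4504 ± 226 FPKM in siMCT4 and 6065 ± 294 FPKM in controls, and the gap between groups is widest at MT-RNR2, at 2519 ± 55.6 FPKM in siMCT4 and 5313 ± 189.6 FPKM in controls.

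To ask whether the kinds of mitochondrial RNA moved together, their counts were summed in each library and set against one another, which cancels depth and scaling. The rRNAs came to 16.6%, 15.9% and 15.7% of the counts of the heavy-strand mRNAs, which share their precursor strand, in siMCT4, against 25.6%, 26.2% and 26.1% in controls (log2 difference -0.69). MT-ND6 was at 1.42%, 1.39% and 1.52% of the heavy-strand mRNA counts in siMCT4, against 1.66%, 1.67% and 1.72% in controls (log2 difference -0.22). Both ratios were lower in every siMCT4 library than in any control. Heavy-strand tRNAs came to 0.430 ± 0.00863% of the heavy-strand mRNA counts in siMCT4 and 0.397 ± 0.00586% in controls, and light-strand tRNAs to 1.62 ± 0.0228% in siMCT4 and 1.51 ± 0.0274% in controls (SD, n = 3 each). Both tRNA ratios were higher in siMCT4 without overlap, by 0.12 and 0.10 on the log2 scale, in the direction opposite to the rRNAs. These sums weigh most on abundant rows such as MT-TL1 and MT-TN, and single tRNAs did not all move this way. In the fit of each gene relative to heavy-strand mRNA, given below, 4 of the 22 tRNAs were called higher, beside 45.7% of all tested genes. In that fit 1 tRNA was called lower (MT-TV, log2 change -0.40), beside 7.24% of all tested genes, and 17 were not called. The ratio of light-strand to heavy-strand tRNAs was 376 ± 6.23% in siMCT4 and 379 ± 11.04% in controls, and the groups overlapped (log2 difference -0.01, exact permutation p = 0.8).

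Between the complexes, the balance of complex III and complex V to complex IV differed between groups without overlap. MT-CYB counts came to 12.3%, 11.7% and 12.6% of complex IV mRNA counts in siMCT4, against 9.92%, 10.2% and 10.03% in controls (log2 difference 0.28). Complex V mRNAs came to 17.5%, 16.5% and 18.6% of complex IV mRNA counts in siMCT4, against 20.1%, 19.8% and 19.4% in controls (log2 difference -0.17). The heavy-strand complex I mRNAs came to 122 ± 5.06% of complex IV mRNA counts in siMCT4 and 118 ± 2.75% in controls (SD, n = 3 each), with overlapping groups (log2 difference 0.05, exact permutation p = 0.3). The 6 ratios without overlap, of the 8 computed, each had an exact two-sided permutation p of 0.1, the smallest possible, and 0.133 after Benjamini-Hochberg adjustment over the 8, so none could pass 0.05 in this design.

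**Figure D3:**
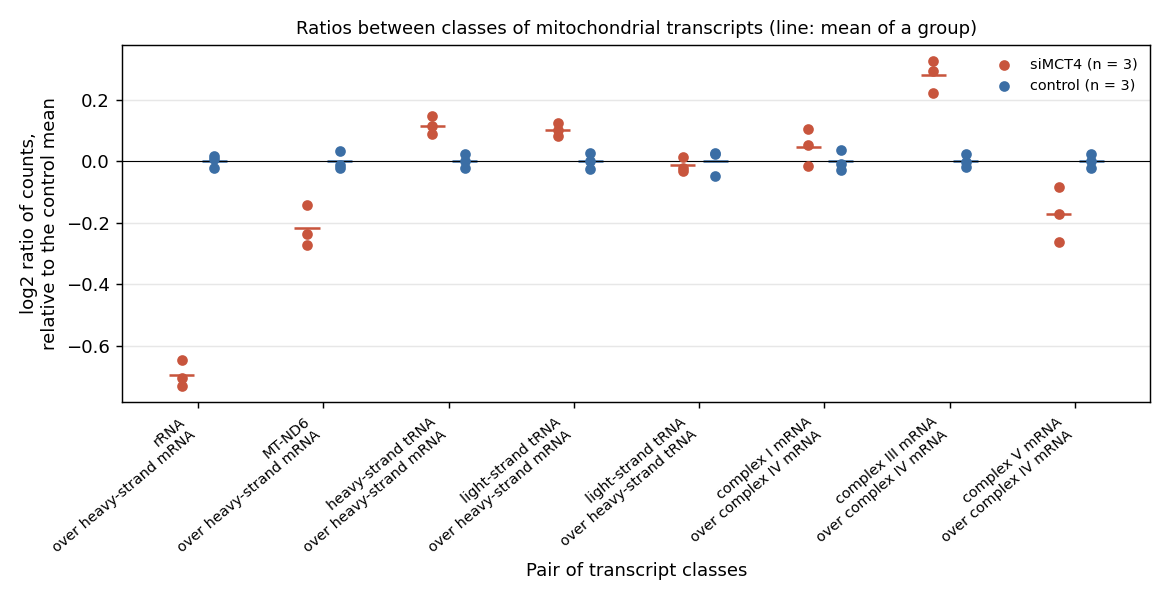
Log2 ratio of summed counts of 2 classes of mitochondrial RNA in each library, relative to the control mean (y axis), for the 8 pairs of classes (x axis); points are libraries (3 siMCT4, left, and 3 control, right) and lines are group means. The rRNA ratio lies lowest in siMCT4 at -0.69, the complex III ratio highest at 0.28, and the groups overlap for light-strand over heavy-strand tRNAs and for complex I over complex IV.

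**Figure D4:**
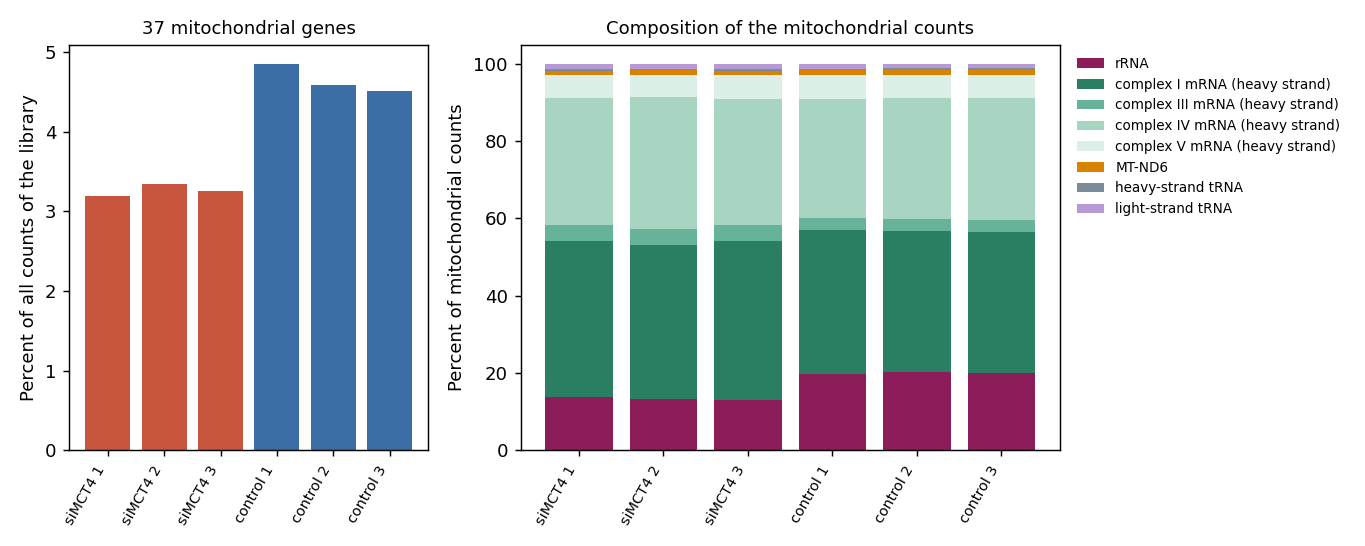
Left, share of all counts in each library held by the 37 mitochondrial genes (bars, y axis in percent); right, share of the mitochondrial counts held by each kind of RNA (stacked bars, y axis in percent), for the 3 siMCT4 and 3 control libraries. The bars on the left stand at 3.19% to 3.35% in siMCT4 and 4.52% to 4.85% in controls, and the rRNA part on the right at 13.4 ± 0.344% in siMCT4 and 20.04 ± 0.222% in controls (SD, n = 3 each).

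The same question was put to each gene with edgeR, using the summed counts of the 12 heavy-strand mRNAs as the library size. On this scale the median of all tested genes shifts to 0.47, because the mRNAs that set the scale fell. Of the 37 genes 7 were called lower, beside 7.24% of all tested genes, and 7 higher, beside 45.7%. The 12 heavy-strand mRNAs set this scale themselves, so a fall of some forces a rise of others on it. They make up 3 of the lower and 3 of the higher calls, which describe only differences among them. MT-RNR2 (log2 change -0.71 ± 0.049 SE, adjusted p = 1.38e-05) and MT-RNR1 (-0.42 ± 0.066, adjusted p = 0.000921) were lower than the heavy-strand mRNAs, and so was MT-TV, the tRNA between them (-0.40 ± 0.10, adjusted p = 0.0111). Light-strand MT-ND6 was lower as well (-0.22 ± 0.055, adjusted p = 0.0111). Within the heavy-strand mRNAs MT-CO3 (-0.23, adjusted p = 0.00637), MT-ATP6 (-0.22, adjusted p = 0.00849) and MT-ND3 (-0.36, adjusted p = 0.0411) were lower relative to their sum. Higher relative to it were MT-CYB (0.26 ± 0.048, adjusted p = 0.00227), MT-CO2 (0.26, adjusted p = 0.038) and MT-ND2 (0.16, adjusted p = 0.0193). The 4 tRNAs called higher on this scale were MT-TM (0.60 ± 0.15, adjusted p = 0.0111), MT-TK (0.55, adjusted p = 0.0456), MT-TN (0.17, adjusted p = 0.022) and MT-TA (0.17, adjusted p = 0.0294).

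Under 13 other settings of this relative fit, 4 of its 14 calls held throughout, those of MT-RNR2, MT-RNR1, MT-CYB and MT-TM. These settings included neither limma nor a correction for GC content. With siMCT4 library 3 as the only siMCT4 library, a setting in which the controls alone give the spread, MT-ND6 was at -0.14 (adjusted p = 0.133). The calls of MT-CO2, MT-ND2, MT-ND3, MT-TN, MT-TA and MT-TK were each lost on leaving out a single library. For MT-CO2 these were control 1, control 2, siMCT4 1 or siMCT4 2 (adjusted p from 0.104 to 0.126), and for MT-ND2 control 2, control 3 or siMCT4 1 (0.0505 to 0.0854). For MT-ND3 any library but control 2 ended the call (0.0513 to 0.101), the largest shift being to -0.20 without control 3. For MT-TN the libraries were all 3 controls and siMCT4 1 (0.0518 to 0.0746), for MT-TA all but siMCT4 3 (0.0526 to 0.0954), and for MT-TK all but control 2 (0.057 to 0.132).

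The nuclear-encoded machinery that makes and removes mitochondrial RNA was mixed, with more members called higher than lower, except after a correction for GC content. Of 49 such genes, all tested, 18 were called higher, 5 lower and 26 were not called, with a median log2 change of 0.13, beside 20.6% of all tested genes called higher and 20.8% lower. That correction gave 11 higher and 11 lower, leaving out siMCT4 library 3 gave 20 higher and 9 lower, and limma on log2(TPM + 1) gave 23 higher and 3 lower. Over all tested genes the split moved the same way. It was 3185 higher and 4903 lower after that correction and 4528 and 5019 without siMCT4 library 3. On log2(TPM + 1) it was 6245 and 2886. In transcription, TFAM, which packages mitochondrial DNA and opens its promoters, was at 16.3 ± 1.49 CPM in siMCT4 and 24.6 ± 0.741 CPM in controls (SD, n = 3 each), and fell (log2 change -0.60 ± 0.086 SE, adjusted p = 0.00125; -0.38 on log2(FPKM + 1)). TFB2M, the factor that melts the promoter, and TEFM, the elongation factor, rose (0.35 ± 0.07, adjusted p = 0.00579, and 0.49 ± 0.12, adjusted p = 0.0152), the second not without control 2 (adjusted p = 0.0518) or siMCT4 2 (0.0572). After the GC correction neither was called (TFB2M 0.18, adjusted p = 0.106; TEFM 0.28, adjusted p = 0.12). POLRMT, the polymerase, had 18.8, 19.3 and 41.2 CPM in siMCT4, against 46.7, 42.5 and 41.5 CPM in controls. Its siMCT4 libraries 1 and 2 lay far below the controls and library 3 just below them; its change of -0.72 ± 0.29 was not called (adjusted p = 0.0875), and without library 3 it was -1.19 (adjusted p = 3.46e-06).

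Among the genes of mitochondrial DNA replication, the helicase TWNK (0.75 ± 0.13, adjusted p = 0.00318) and the nuclease MGME1 (0.84 ± 0.17, adjusted p = 0.00565) rose, and the topoisomerase TOP1MT fell (-0.48 ± 0.087, adjusted p = 0.00363; -0.28 on log2(FPKM + 1)). POLG, the catalytic subunit of the DNA polymerase, had a log2 change of -0.08 ± 0.064 (adjusted p = 0.335). Of the genes that cut tRNAs out of the precursors, 3 of 5 rose. TRMT10C, a subunit of the mitochondrial RNase P that cuts the 5′ end, was at 28.0 ± 2.79 CPM in siMCT4 and 16.6 ± 0.687 CPM in controls (log2 change 0.75 ± 0.09 SE, adjusted p = 0.000511). PTCD1 rose by 0.56 ± 0.11 (adjusted p = 0.00619). ELAC2, which cuts the 3′ end, rose by 0.31 ± 0.095 (adjusted p = 0.0338), a call lost on leaving out any library but siMCT4 3 (adjusted p from 0.0571 to 0.107), with no filter on low counts (0.0523) and after the GC correction (0.0629).

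Of 12 genes of RNA stability and polyadenylation 5 rose and 1 fell. LRPPRC, which with SLIRP stabilises mitochondrial mRNAs, was the most abundant machinery gene named here, at 275 ± 3.99 CPM in siMCT4 and 289 ± 7.72 CPM in controls, with a log2 change of -0.07 ± 0.04 that was not called (adjusted p = 0.182) but was called lower after the GC correction (-0.25, adjusted p = 0.00503). FASTKD5, needed for mRNAs that lack a bordering tRNA (0.64 ± 0.096, adjusted p = 0.00153), and FASTKD3 (0.61 ± 0.12, adjusted p = 0.00552) rose, and the RNA-binding protein GRSF1 fell (-0.25 ± 0.049, adjusted p = 0.0053). The GC correction moved FASTKD3 to 0.41 and GRSF1 to -0.43, and by limma GRSF1 was not called on log2(FPKM + 1) (-0.13, adjusted p = 0.0719) or log2(TPM + 1) (-0.048, adjusted p = 0.465). In degradation, PNPT1, the polynucleotide phosphorylase that degrades mitochondrial RNA and clears its double-stranded form, had 76.6, 76.3 and 80.5 CPM in siMCT4, against 43.8, 41.8 and 43.5 CPM in controls (log2 change 0.85 ± 0.05 SE, adjusted p = 1.67e-05). Its helicase partner SUPV3L1 rose by 0.34 ± 0.06 (adjusted p = 0.00326), a call lost after the GC correction (0.13, adjusted p = 0.14), and for the oligoribonuclease REXO2 the change was -0.09 ± 0.14 (adjusted p = 0.642). For PNPT1 every siMCT4 library lay above every control.

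In ribosome assembly, which concerns the rRNAs directly, NOA1, a GTPase of the mitochondrial ribosome, was at 10.7 ± 1.07 CPM in siMCT4 and 20.8 ± 0.465 CPM in controls, and fell (log2 change -0.96 ± 0.097 SE, adjusted p = 0.000215). ERAL1, a chaperone of the 12S rRNA, rose (0.45 ± 0.083, adjusted p = 0.00413), as did MTERF4, which acts in large-subunit assembly (0.27 ± 0.075, adjusted p = 0.0238), though not without control 2, control 3, siMCT4 1 or siMCT4 2 (adjusted p from 0.0554 to 0.0792) and not after the GC correction (0.094, adjusted p = 0.393). Of the regulators of mitochondrial biogenesis, the coactivator PPARGC1B had 167, 158 and 159 CPM in siMCT4, against 66.9, 65.4 and 62.6 CPM in controls, the largest rise among the 49 (log2 change 1.31 ± 0.048 SE, adjusted p = 2.25e-06). GABPB1, a subunit of nuclear respiratory factor 2, fell (-0.41 ± 0.088, adjusted p = 0.00817), but was not called by limma on log2(TPM + 1) (-0.19, adjusted p = 0.118). PPARGC1A was barely detected, at 0.520 ± 0.476 CPM in siMCT4 and 0.649 ± 0.0698 CPM in controls, and was not called. ESRRA, a nuclear receptor that works with these coactivators, differed from the control mean by -1.33, -1.17 and -0.10 on the log2 scale in siMCT4 libraries 1 to 3 and was not called (-0.76 ± 0.31, adjusted p = 0.0868), but DESeq2 called it with all 6 libraries (-0.75, adjusted p = 0.0161), and without siMCT4 library 3 its change was -1.25 (adjusted p = 2.30e-05).

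**Figure D5:**
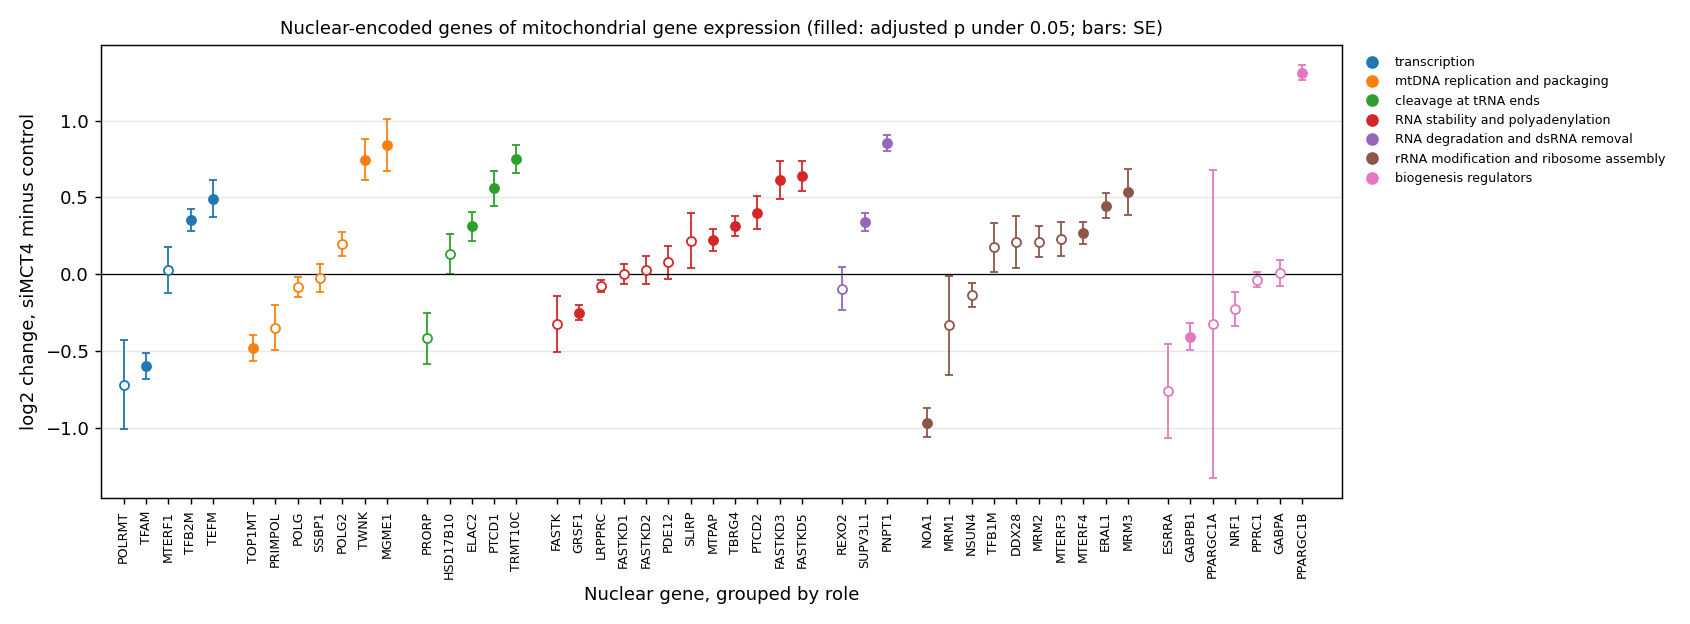
Log2 change (siMCT4 minus control, y axis) of the 49 nuclear-encoded genes of mitochondrial gene expression (x axis, grouped and coloured by role), with bars for the standard error and filled circles for an adjusted p under 0.05; n = 3 libraries per group. PPARGC1B stands highest at 1.31, PNPT1 is at 0.85, and TFAM (-0.60) and NOA1 (-0.96) are among the 5 genes called lower.

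The mRNAs of the nuclear-encoded subunits that join the mitochondrial ones in the same complexes were more often called lower than higher. Of 72, all tested, 40 were called lower, 1 higher and 31 were not called, beside 20.8% of all tested genes called lower. The median log2 change of the 72 was -0.41. It was -0.54 over the 13 mitochondrial mRNAs and -0.42 over all 37 mitochondrial genes, tRNAs and rRNAs included. On log2(TPM + 1) limma called 21 of the 72 nuclear-encoded genes lower, beside 2886 of all 19944 tested genes. By complex 22 of 37 fell in complex I, 6 of 9 in complex III, 6 of 11 in complex IV and 6 of 15 in complex V. In complex I, NDUFA11 (-0.86 ± 0.093, adjusted p = 0.000312) and NDUFS3 (-0.67 ± 0.091, adjusted p = 0.000948) fell. In complex III the mRNAs of the core proteins UQCRC2 (-0.54 ± 0.074, adjusted p = 0.00102) and UQCRC1 (-0.35 ± 0.052, adjusted p = 0.00145) fell. The GC correction moved NDUFA11 to -0.40 and UQCRC1 to -0.18, and on log2(TPM + 1) limma gave -0.34 for UQCRC2, -0.19 for ATP5F1B and -0.15 for UQCRC1, the last not called (adjusted p = 0.0623). COX5A of complex IV fell by a like amount in all 3 libraries (-0.84 ± 0.086, adjusted p = 0.000232), whereas COX5B fell unevenly, with log2 ratios to the control mean of -2.60, -2.51 and -1.26 in siMCT4 libraries 1 to 3 (-1.98 ± 0.36, adjusted p = 0.0037). In complex V ATP5F1B, the catalytic beta subunit, was at 379 ± 7.49 CPM in siMCT4 and 497 ± 24.1 CPM in controls (-0.39 ± 0.047, adjusted p = 0.000522) and ATP5MC2, a subunit of its rotor ring, had a larger change (-0.83 ± 0.12, adjusted p = 0.00111). MT-CYB, the mitochondrial member of complex III, had a log2 change of -0.22, against a median of -0.39 over the nuclear members of that complex. This difference was not tested.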

How the data were processed

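Poly(A)-selected RNA of 6 THP-1 libraries, 3 siMCT4 and 3 control, was sequenced as read pairs after a strand-marking preparation, as the labels' protocols state. Tools named in the submitters' processing notes are the read trimmer cutadapt 1.9 and the aligner HISAT2 2.2.1, with the build GRCh38. How reads were counted, and on which strand, is not given in the sources used here. Raw counts and FPKM of 35009 genes are in the deposited table per the file headers, and 0 of its 12 sample columns went unused. The deposited counts are whole numbers with no normalization. Between 2 and 41 counts, 58.7% to 60.9% of values were even, as if each mate of a pair were counted. Intervals on shares cover counting error only. They take each count as independent, so they may be too narrow even for that.

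Genes were tested with edgeR 4.0.16 (R 4.3.3), quasi-likelihood, two-sided, TMM scaling, group as the sole factor, after filterByExpr with a smallest count of 10 and smallest total of 15, which left 19944 genes; p-values were adjusted by Benjamini-Hochberg over all of them and called under 0.05. SE was taken as the size of the log2 change over the root of the test's F statistic. A second fit took the summed counts of the 12 heavy-strand mitochondrial mRNAs as library size. Shares and ratios of summed counts had exact permutation tests. The fits were tested on simulated data. Alternatives included DESeq2 1.42.0, limma 3.58.1 on log2 values with a pseudocount of 1 or 0.1, other scalings and filters, single libraries left out and a GC correction (loess, span 0.3) from GENCODE 29 transcripts, which gave a GC value to 94.9% of rows. Coordinates of all 37 genes were identical in the table and GENCODE 29. The mitochondrial genes, gene lists and named genes were chosen with earlier results of these data known. Named were all mitochondrial genes by the results, up to 3 genes per role of the machinery list with the smallest adjusted p plus POLRMT, TFAM, LRPPRC, PNPT1, POLG and PPARGC1A, and 2 per complex of the nuclear subunits. The marker genes CD3D, CD3E, MS4A1 and CDH5 were looked up, but no row of the gene table carries these symbols, so they were not analysed here.

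The replicate numbers did not pair the libraries: deviations from the group means correlated at -0.0616, -0.00295 and -0.0547 between libraries of the same number.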

Additional observations from a re-analysis of the deposited data

How the results depend on the processing

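Both rRNAs were called lower in all 20 alternatives to the fit. The mitochondrial mRNAs called lower numbered 12 as reported, 12 to 13 with single libraries left out, 7 by limma on log2(FPKM + 1) and on log2(FPKM + 0.1), and 6 on log2(TPM + 1); tRNAs called lower numbered 11 as reported, 10 to 11 with single libraries left out, and 5 on log2(TPM + 1). Over all genes the split was 4116 higher and 4144 lower as reported, 6245 and 2886 on log2(TPM + 1), and 3185 and 4903 after GC correction. With single libraries left out it ran from 3295 to 4528 higher and from 3195 to 5019 lower. Machinery genes called higher numbered 18 as reported, 11 after GC correction and 12 to 20 with single libraries left out; those called lower numbered 5, 3 on log2(TPM + 1), 11 after GC correction and 5 to 9 with single libraries left out. Nuclear-encoded subunits called lower numbered 40 as reported, 21 on log2(TPM + 1) and 28 to 42 with single libraries left out. In each of these the cause was not tested.

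The fit relative to heavy-strand mRNA moved more. With siMCT4 library 3 alone that group has 1 library and the spread comes from the controls alone. The part of this in the calls lost was not tested. In the relative fit mRNAs called lower numbered 4 as reported, 2 with siMCT4 library 3 alone and 3 to 4 with single libraries left out; those called higher numbered 3, 1 with siMCT4 library 3 alone and 1 to 3 with single libraries left out. The tRNAs called higher numbered 4, 1 with siMCT4 library 3 alone and 1 to 3 with single libraries left out. With the replicate number as a block, which did not pair the libraries, 0 mRNAs were called lower by edgeR (4 at an unadjusted p under 0.05), 1 mRNA higher and 1 tRNA higher in the relative fit and MT-ND6 had an adjusted p of 0.0528, while the fit on all counts called 12 mRNAs lower among 3580 genes lower and 3341 higher. The block also gave calls for MT-TS1 (-0.53, adjusted p = 0.0343) and ESRRA (-0.87, adjusted p = 0.0431), and none for MT-TT, TEFM, MTERF4 and ELAC2 (adjusted p = 0.0766, 0.0507, 0.0607 and 0.0788). Samples did not all correlate best with their own number.

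Signs turned for the following results. The ratio of light-strand to heavy-strand tRNA ran from -0.037 to 0.00024 with single libraries left out, and that of complex I to complex IV mRNA was -0.0071 on mean log2(FPKM + 1). With single libraries left out MT-TQ ran from -0.19 to 0.062, MT-TH from -0.17 to 0.082, REXO2 from -0.17 to 0.0068 and PPARGC1A from -1.07 to 0.27; with siMCT4 library 3 alone MT-TQ was 0.044. On total counts LRPPRC was 0.012, POLG 0.0022 and MT-TH 0.035. On log2(FPKM + 1) and log2(FPKM + 0.1), REXO2 was 0.0099 and 0.013, LRPPRC 0.031 and 0.035, POLG 0.022 and 0.024, MT-TQ 0.016 and 0.017, MT-TH 0.059 and 0.060, and MT-TS2 0.0076 and 0.0078. On log2(TPM + 1) REXO2 was 0.096, LRPPRC 0.12, POLG 0.11, MT-TQ 0.11, MT-TH 0.15 and MT-TS2 0.10. After GC correction POLG was 0.021, MT-TM -0.083 and MT-TK -0.14. In the relative fit with single libraries left out MT-TS1 ran from -0.19 to 0.26, MT-TW from -0.045 to 0.22 and MT-ND4 from -0.012 to 0.032; MT-TW was -0.32 with siMCT4 library 3 alone, and MT-ND4 -0.0077 with 11 heavy-strand mRNAs as the scale. None of these reversed values was called.

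Adding the counts of nuclear copies to the gene they are named for, a setting chosen after seeing the data, left 12 mRNAs and 11 tRNAs lower. The 3 libraries per group set the limit on shares and ratios, whose exact test cannot go below 0.1.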

Other observations

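The deposited table also holds 102 nuclear copies of mitochondrial genes with counts, and 3 of them on chromosome 1, MTND2P28, MTATP6P1 and MTCO1P12, held 98.5% of the counts of all copies. They had log2 changes of -0.32, -0.66 and -0.38 by edgeR, beside -0.32, -0.70 and -0.54 for MT-ND2, MT-ATP6 and MT-CO1. Of the 25 copies tested, 4 were called higher, 6 lower and 15 were not called, beside 20.6% and 20.8% of all tested genes.

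The 4 copies called higher lie together on chromosome 15. MTND5P32 had 136, 177 and 229 counts in the siMCT4 libraries, against 4, 6 and 4 in controls (log2 change 5.15 ± 0.32 SE, adjusted p = 2.02e-05 by edgeR). MTCYBP23 had 111, 125 and 128 counts in siMCT4, against 6, 1 and 1 in controls (log2 change 5.38 ± 0.53 SE, adjusted p = 0.000189). MTCO3P23 had 19, 16 and 11 counts in siMCT4, against 2, 1 and 2 in controls (log2 change 3.05 ± 0.67 SE, adjusted p = 0.00881), and MTND3P12 had 11, 17 and 29 counts in siMCT4, against 0 in all 3 controls (adjusted p = 0.00597). All 4 lie between 58150275 and 58156061 (GRCh38), within the spans of ALDH1A2, an enzyme that makes retinoic acid, and AQP9, a glycerol channel. ALDH1A2 had 17815, 19998 and 20031 counts in siMCT4, against 1131, 1113 and 932 in controls (log2 change 4.11 ± 0.074 SE, adjusted p = 1.32e-07). The copies and AQP9 are on the plus strand and ALDH1A2 is on the minus strand. Without a stated strand setting, reads of the copies and of ALDH1A2 cannot be told apart. Reads of AQP9 precursor over the copies share their strand, so no strand setting would separate them. The copies were singled out after their values were seen.

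MTND6P4, a nuclear copy of MT-ND6 on chromosome 5, had 26, 12 and 17 counts in siMCT4, against 45, 63 and 59 in controls (log2 change -1.66 ± 0.40 SE, adjusted p = 0.0132 by edgeR). It lies within the span of PCBD2 on the same strand, so reads of the copy and of that gene cannot be told apart. The copies MTND4P12, MTND5P11 and MTND4LP30, in the same span on the other strand, were not called (log2 changes -0.29, -0.63 and -0.28).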
